A study of Mus musculus with 8 samples.

Results

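The accessible chromatin described here is the set of sites that 2 separately called peak lists placed at the same position in mTEC-IV, a medullary thymic epithelial population sorted from the thymus of C57BL/6 mice as CD45-, Epcam+, MHCII low, Itgb4- and L1cam+ cells. Sites were selected on the authors' peak calls, and so on signal: a site was counted when a peak of the replicate 1 list shared at least 1 bp with a peak of the replicate 2 list. The rule found 24319 sites among 30017 replicate 1 peaks, or 81.0%, beside 74090 merged peaks over the 8 libraries of the study. The 3 other populations, each with 2 libraries from the same strain, were mTEC-I (Itgb4+ and MHCII low), mTEC-II (MHCII high) and mTEC-III (Ly6D+), and they enter below only as lists of positions. The labels give no treatment, allele or age for any group, and nothing in them ties the 2 replicates of a group to different animals, so the difference between the 2 mTEC-IV libraries may be technical. The 2 libraries held 6010018 and 10374623 tags (reads as counted by the authors' peak caller), against 3606436 to 8574918 in the other 6. Because signal values chose the sites, everything below is a description and no site was tested against another.

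Tuft cells are chemosensory epithelial cells with a brush of apical microvilli. They detect ligands through taste-type G protein signalling and release IL-25, lipid mediators and acetylcholine, and their formation in mucosal tissues and in the thymic medulla requires the POU-family transcription factor Pou2f3. In ATAC-seq a transposase inserts adapters into open chromatin, so that promoters, enhancers and other unprotected DNA are read more often than packed DNA. Signal at a site is openness summed over a sorted pool: a larger share of cells with an open site and a more open site in each cell cannot be told apart, and no value below is expression.

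The promoter sequences of 5 genes with a replicated peak at their start are shown first. Avil and Rgs13 were among the markers given for these cells, and the Il4ra, Itpr3 and Hpgds promoters are those of the tuft gene lists that held both a replicated peak and the octamer ATGCAAAT, the element bound by POU-family factors. They are the 250 bases before the start site in RefSeq, build GRCm38.p6, printed 5′ to 3′ on the gene's strand at chr10:127000459-127000708 (Avil, plus strand), chr1:144177373-144177622 (Rgs13, minus strand), chr7:125552021-125552270 (Il4ra, plus strand), chr17:27057054-27057303 (Itpr3, plus strand) and chr6:65144731-65144980 (Hpgds, minus strand). These coordinates are not those of the peaks, which are in mm9. Capitals mark a match, on either strand, to the octamer, to the GC box GGGCGGGG or to the CCAAT box. These 5 were chosen after their values were seen.
Avil: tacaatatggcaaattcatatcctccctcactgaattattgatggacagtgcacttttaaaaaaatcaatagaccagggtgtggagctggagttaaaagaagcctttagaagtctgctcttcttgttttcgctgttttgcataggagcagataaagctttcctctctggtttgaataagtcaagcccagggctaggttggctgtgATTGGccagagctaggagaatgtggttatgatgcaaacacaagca
Rgs13: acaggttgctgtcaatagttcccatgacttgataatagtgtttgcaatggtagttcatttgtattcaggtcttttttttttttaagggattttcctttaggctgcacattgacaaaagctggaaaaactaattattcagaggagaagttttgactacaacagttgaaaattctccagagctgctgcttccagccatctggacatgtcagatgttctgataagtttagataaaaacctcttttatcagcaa
Il4ra: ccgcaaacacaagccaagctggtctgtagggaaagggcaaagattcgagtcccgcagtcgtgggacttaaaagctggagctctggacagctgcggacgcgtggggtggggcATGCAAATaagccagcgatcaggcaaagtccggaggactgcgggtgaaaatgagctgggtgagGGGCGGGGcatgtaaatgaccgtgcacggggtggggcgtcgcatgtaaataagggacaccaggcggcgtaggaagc
Itpr3: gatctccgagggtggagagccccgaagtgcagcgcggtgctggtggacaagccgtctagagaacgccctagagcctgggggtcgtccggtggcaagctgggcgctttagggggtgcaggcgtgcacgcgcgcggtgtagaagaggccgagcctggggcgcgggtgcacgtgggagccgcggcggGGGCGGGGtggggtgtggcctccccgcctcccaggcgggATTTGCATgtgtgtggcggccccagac
Hpgds: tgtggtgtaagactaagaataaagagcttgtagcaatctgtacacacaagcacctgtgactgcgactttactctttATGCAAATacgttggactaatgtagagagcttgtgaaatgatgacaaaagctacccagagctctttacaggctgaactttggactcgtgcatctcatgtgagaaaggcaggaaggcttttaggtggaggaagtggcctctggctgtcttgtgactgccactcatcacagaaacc

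The octamer lay at bases -139 to -132 of the Il4ra promoter, -27 to -20 of the Itpr3 promoter, where it reads in the reverse direction, and -174 to -167 of the Hpgds promoter, counting -1 as the last base before the start. The Il4ra promoter had a GC content of 59.6% and 17 CpG dinucleotides, and that of Itpr3 had 72.0% and 25. The promoters of Avil, with 42% GC and 1 CpG, and Rgs13, with 36.0% GC and none, lay at the other end of the range. In the Avil promoter the only match among the 7 motifs searched was a CCAAT box, and the upstream bases of Rgs13 held none of them. A match is a string of letters in this window, not evidence of binding.

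The sites carried the markers of the label. Pou2f3 had 5 replicated peaks. Its promoter peak, 178 bp upstream of the start (chr9:43013969-43014097, mm9), had a normalized signal of 23.3 tags per 10000000 in replicate 1 and 13.5 in replicate 2. An intronic peak 16.8 kb downstream of the start (chr9:42996973-42997101) was the strongest of the 5, at 35.8 and 25.5. The Avil promoter (chr10:126437601-126437729), of the actin-binding protein advillin, gave 39.1 and 20.7, and that of Rgs13 (chr1:146024392-146024520), a regulator of G protein signalling, gave 34.1 and 17.4. L1cam, the adhesion molecule used in the sort, had a single intronic site 276 bp into the gene (chrX:71125842-71125970) at 13.3 and 12. In every one of these sites replicate 1 was the higher library. The Avil promoter was above 77.6% of all 24319 sites in replicate 1 and 63.7% in replicate 2, and the L1cam site above 13.9% and 29.2%.

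Other defining markers of tuft cells were present with one exception. Of the 8 tuft markers listed, 7 had a replicated peak within 10 kb of their start: the 4 above, Dclk1, Gnat3 and Plcb2. Over all genes the share with such a peak was 62.2% of the 18215 genes in the merged table and 48.1% of 21900 RefSeq protein-coding genes. Dclk1, a microtubule-associated kinase used as a tuft marker in gut, had 9 replicated peaks over 305.2 kb (chr3:55022259-55327430), 3 intergenic ones upstream of the promoter, 1 at the promoter (chr3:55046427-55046555) and 5 intronic ones downstream of it, at 11.6 to 25 in replicate 1 and 9.64 to 20.7 in replicate 2. Trpm5, the cation channel at the end of the taste cascade, had none. Its replicate 1 peak lay 540 bp into the gene and its replicate 2 peak 1492 bp into it, so the 2 lists marked different sites. The authors' merged table measures every library at every merged peak. Its values run higher than those of the peak lists, with a median over all sites of 39.9 and 31.3 against 22.5 and 16.4. There the first Trpm5 site had a signal of 24.1 and 16.9 and the second 9.98 and 15.9, so both sites held signal in both libraries. Among the genes of the negative gates, Itgb4 had a replicated peak in its 5′ UTR at 35.8 and 22.7, with a merged signal of 76.5 and 52.5. Ptprc, which encodes CD45, had 1 weak intronic site 38.5 kb from its start, with a merged signal of 16.6 and 13.

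The median site was carried by few tags. Its normalized signal was 22.5 in replicate 1 and 16.4 in replicate 2, which stood for 13.5 and 17.0 tags and a counting error of 27.2% and 24.2%. From the 5th to the 95th percentile the signal ran from 11.6 to 63.2 in replicate 1 and from 8.19 to 44.3 in replicate 2. Values were lower in replicate 2 at nearly every site: the median log2 ratio of replicate 2 to replicate 1 was -0.48, with an SD over sites of 0.33, and 7.63% of sites were higher in replicate 2. In the merged table the median log2 ratio over the same sites was -0.38. The order of the sites was shared (Pearson r 0.911 on log2 values and Spearman rho 0.888 across sites, which are not independent replicates and were chosen for having a peak in both). A ratio of more than 2-fold in either direction was seen at 5.04% of sites.

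**Figure D1:**
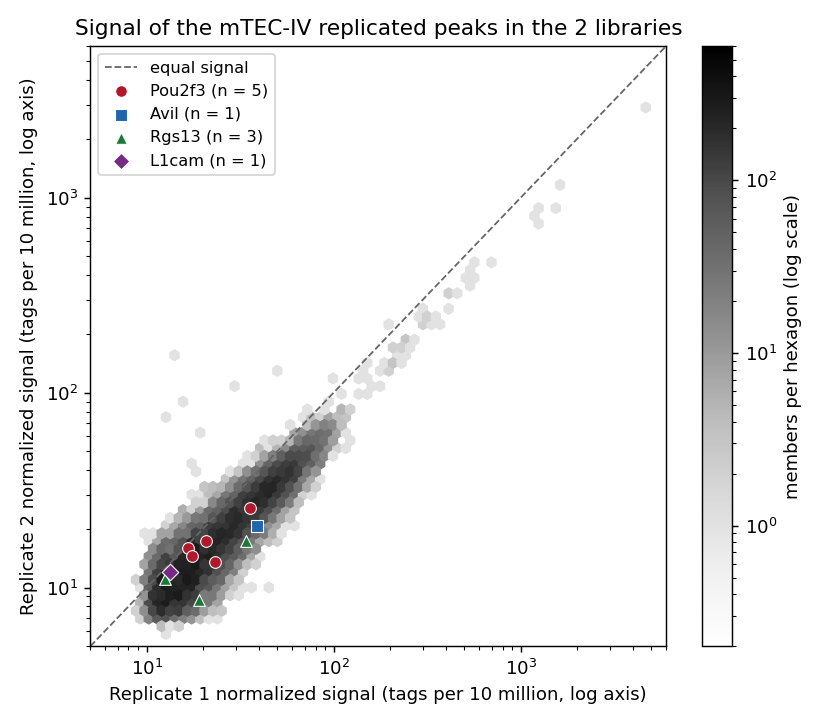
Normalized signal of the 24319 sites in replicate 1 (x) and replicate 2 (y), in tags per 10000000 on log axes; grey hexagons give the number of sites, coloured symbols the sites of 4 marker genes, and the dashed line equal signal. Most sites lie below the line, with a median log2 ratio of -0.48, and the marker genes fall in the body of the distribution.

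How often a peak was found again followed its strength. Among the strongest 10% of the replicate 1 list, 93.8% of peaks overlapped a replicate 2 peak, and among the weakest 10% the share was 56.0%. From the side of the replicate 2 list the shares ran from 92.4% to 29.5%, and 25611 of its 38108 peaks, 67.2%, overlapped a replicate 1 peak. Position moved with strength as well. Peaks within 1 kb of a transcription start site (TSS) made up 89.4% of the strongest 10% of replicate 1 and 11% of the weakest.

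**Figure D2:**
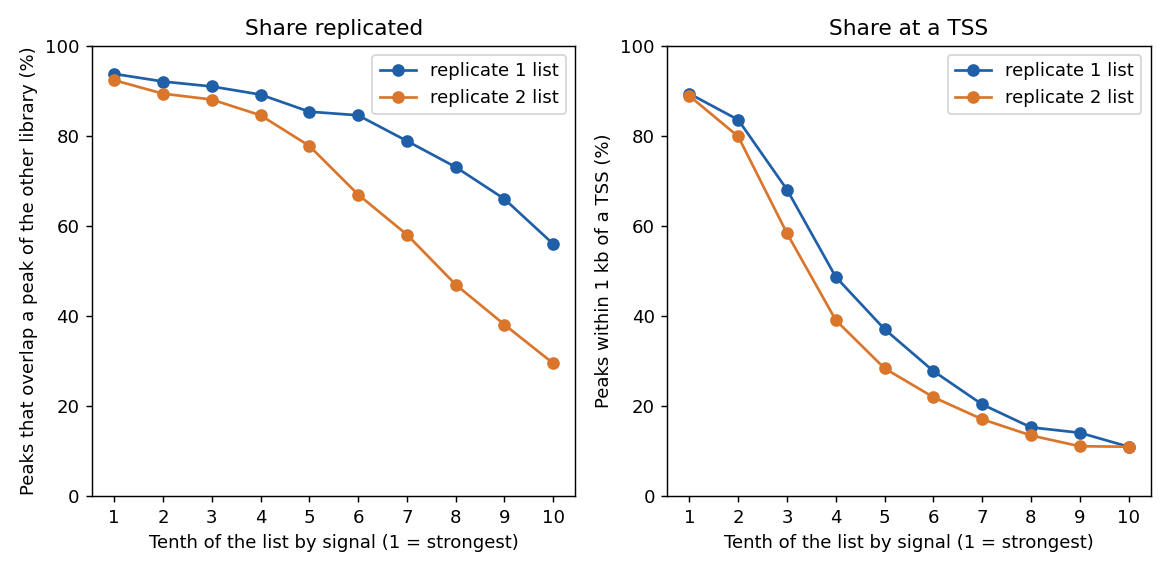
Peaks of each mTEC-IV list split into 10 equal bins by normalized signal (x, 1 is the strongest), with the share that overlaps a peak of the other library (left) and the share within 1 kb of a TSS (right), in percent. In replicate 1 the left share falls from 93.8% to 56.0% and the right share from 89.4% to 11%.

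The edge of the rule lay among sites of ordinary strength. Peaks in each list had one fixed width, and the median overlap was 97 bp. Sites that overlapped by at most 10 bp numbered 343, and their median signal was 25 and 17.8. Another 290 replicate 1 peaks missed a replicate 2 peak by at most 10 bp, with a median signal of 23.3 in replicate 1 and a merged signal of 31.8 in replicate 2, beside 38.1 for the sites just inside the rule. Of the 5698 replicate 1 peaks without an overlap, 2404, or 42.2%, had a replicate 2 peak within 500 bp. In 875 merged peaks both libraries had a peak and none of them met, and these merged peaks were wide (median 324 bp, against 203 bp for those that held a counted site). The promoter of Krt8, a simple-epithelium keratin of tuft cells, was one of them, at a merged signal of 127.3 and 84.8.

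Starts of genes were the commonest class. Sites within 1 kb of a TSS made up 43.9% (10670 sites at 9684 genes), against 24.1% of all merged peaks. By the authors' annotation, 37.9% of sites were promoter-TSS, 28.1% intronic, 27% intergenic and 2.45% exonic, where the merged table had 18.3%, 37.6%, 37.3% and 2.57%. The sites within 1 kb of a TSS were also the stronger ones, with a median signal of 36.6 and 26, where intronic sites had 17.5 in replicate 1 and a value between 12 and 13 in replicate 2, and intergenic sites 17.5 and 13. Their median position was 30 bp upstream of the start, with quartiles from 89 bp upstream to 33 bp downstream. In the better 50% of each list by score the TSS share was 67.7% and the intronic share 16.1%, so these shares move with the peak threshold.

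**Figure D3:**
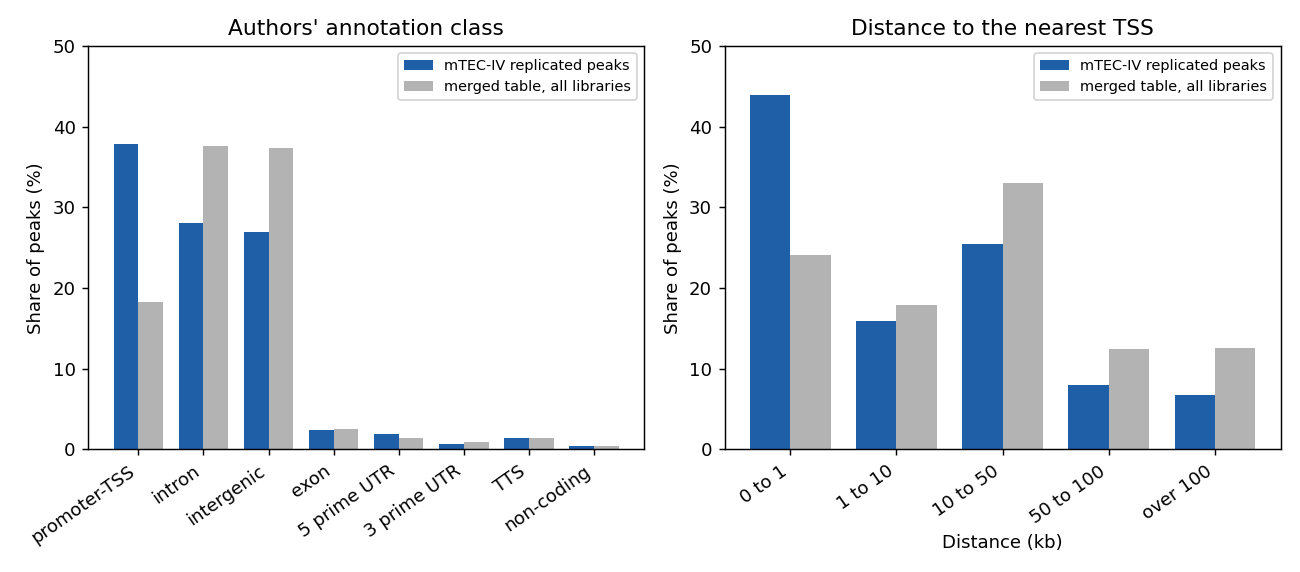
Share of the mTEC-IV replicated peaks (blue) and of all merged peaks of the study (grey), in percent, by the authors' annotation class (left; TTS is the transcription termination site) and by distance to the nearest TSS (right, kb). Sites within 1 kb of a TSS make up 43.9% of the replicated peaks and 24.1% of the merged peaks.

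Away from starts, 15.9% of sites lay 1 to 10 kb from the nearest TSS, 25.5% at 10 to 50 kb, 7.95% at 50 to 100 kb and 6.75% further away. Their median signal was 19.1 and 14 in the first of these classes and 15.8 and 11.6 in the last. The further a site lay from a start, the less often a list of another population held it: 4.32% of sites within 1 kb of a TSS overlapped no peak in any of the 6 other libraries, rising through 31.4%, 40.6% and 49.3% to 64.5% beyond 100 kb. In all, 6211 sites, 25.5%, met no peak of another library, and 6184, 25.4%, lay in the replicated lists of all 4 populations. The latter were 80.1% TSS sites with a median signal of 44.1 and 31.8. The other lists ran from 10525 to 44288 peaks, so a site missing from one may be open below its threshold; with every list cut to 10525 peaks the share in all 4 populations was 51.2%, of 8300 sites, and with an overlap of at least 50% of the peak it was 14.6%.

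The very strongest loci were repeats. Of the 20 sites with the best rank in both libraries, 8 were annotated as rRNA, 8 as satellite, 2 as CpG islands and 2 had no such note. The first was a satellite on chromosome 2 (chr2:98507091-98507219) at 4659.7 and 2899.9, followed by an rRNA copy on chromosome 11 (chr11:108873155-108873283) at 1562.4 and 1119.1, whose nearest annotated start is Axin2, 91.5 kb away. A further 4 were satellite copies at the first assembled bases of chromosome 9, nearest to Mir101c, at 306.2 to 533.3 in replicate 1 and 247.2 to 369.7 in replicate 2. Of the 20, 17 lay in the replicated lists of all 4 populations, beside 25.4% of all sites. All 92 rRNA and satellite sites together were 0.378% of the sites and held 3.24% and 3.15% of the summed signal. How reads that match several copies were handled is not given in the sources used here, and no gene role is read from these heights.

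Ranked without repeat or CpG notes, a choice made after the ranking above was seen, the 20 strongest promoters of protein-coding genes were led by Hjurp, the chaperone that loads the centromeric histone CENP-A, at 203.0 and 143.6 (chr1:90174122-90174250, 55 bp upstream of the start). It was followed by Dnpep, an aspartyl aminopeptidase, at 119.8 and 84.3, and by Mob3a, of the MOB kinase-activator family, at 114.0 and 83.4. Ap2a1, a clathrin adaptor subunit, had 110.6 and 79.5, and Khsrp, an RNA-binding splicing regulator, 109.8 and 80.5. Rpl13a, a ribosomal protein, had 114.8 and 69.9, Hspa8, a constitutive heat-shock chaperone, 104.8 and 71.8, and Prmt5, an arginine methyltransferase, 104.0 and 67.0. Promoters of Tsga10, a testis-specific gene, at 117.3 and 74.2 and of the kinase Map3k3 at 102.3 and 67.0 were also among them. Of these 20 promoters 18 lay in the replicated lists of all 4 populations.

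The strongest tuft-list promoter was that of Ptpn6, the phosphatase SHP-1. At 85.7 and 47.2 (chr6:124688722-124688850) it stood above 98.9% and 96.3% of all sites. Over the 35 tuft-list sites within 1 kb of a TSS the median was 26.6 and 16.4, below the 36.6 and 26 of all 10670 such sites. The 143 tuft-list sites further out had 21.6 and 16.4, beside 17.5 and a value between 12 and 13 for all sites beyond 1 kb.

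More than 10 kb from a start, the highest sites without a repeat or CpG note were few and mostly shared. The first lay in a 3′ UTR on chromosome 9, nearest to the start of Limd1, at 563.2 and 420.7. Sites with a CpG note were left out, among them 2 that ranked higher. These were nearest to Cr2 (65.0 kb, at 574.9 and 452.5) and Rpp21 (26.3 kb, at 594.0 and 388.9). Among those near genes with known regulators, a site 141 kb upstream of Zmiz1, a transcriptional coactivator, had 69.1 and 49.2, and one 12.7 kb upstream of Pnrc1, a nuclear receptor coactivator, had 71.5 and 47.7. Of the first 25, 17 lay in all 4 populations and 3 in no other replicated list, beside 25.4% and 37.1% of all sites. Those 3 were nearest to Plk2, a polo-like kinase (173.8 kb; 60.7 and 42.4), Camk2n1, an inhibitor of CaM kinase II (83 kb; 60.7 and 39.0), and A330102I10Rik (25.6 kb; 58.2 and 44.3). The ranking of distal sites was also made after seeing the data.

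Sites were also counted per gene. Within 50 kb of a start, 12874 genes had a site, 61.8% of them a single one and 262, or 2.04%, at least 5. Abr, a regulator of small GTPases, had 12, of which 10 were intronic, at 10.8 to 59.1 in replicate 1 and 8.19 to 34.7 in replicate 2. Plec, the cytoskeletal linker plectin, had 11. Mical3, an actin-modifying monooxygenase family member, and Rbm47, an RNA-binding protein, had 10 each. Nfkbia, the inhibitor of NF-kB, had 9, with 53.2 and 32.8 at the highest. Vgll4, a TEAD cofactor, Clmn, an actin-binding protein, and Casz1, a zinc finger transcription factor, also had 9, as did Mir101c through its satellite copies.

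Casz1 and Pik3cg had the most sites, among these 20 genes, that met no peak of another library, and are named here for that count. Over all sites the share that met none was 25.5%, with 31.4% at 1 to 10 kb from a start and 40.6% at 10 to 50 kb. A site missing from another list may be open below that list's threshold. Of the 9 Casz1 sites, 8 overlapped no peak of the 6 other libraries. The 9 ran from 14.1 to 40.8 in replicate 1 and from 8.19 to 27 in replicate 2, and at any distance Casz1 had 14 sites, the most of any gene. Pik3cg, the catalytic subunit of PI3-kinase gamma and a member of the tuft lists, had 8 sites within 50 kb, and all 8 overlapped no other library, at 11.6 to 25.8 and 8.19 to 16.4. 1700110K17Rik had 6 of 8. The other genes of the 20 had from 1 to 5. Counted at any distance, Nfia (13 sites), Eya1 (12) and Klf4 (11), a nuclear factor I, a transcriptional cofactor needed for thymus formation and an epithelial zinc finger factor, came among the first. The ranking depends on the window: 3 of the 20 genes remained among the first 20 when sites within 10 kb were counted, 13 within 100 kb and 7 at any distance.

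**Figure D4:**
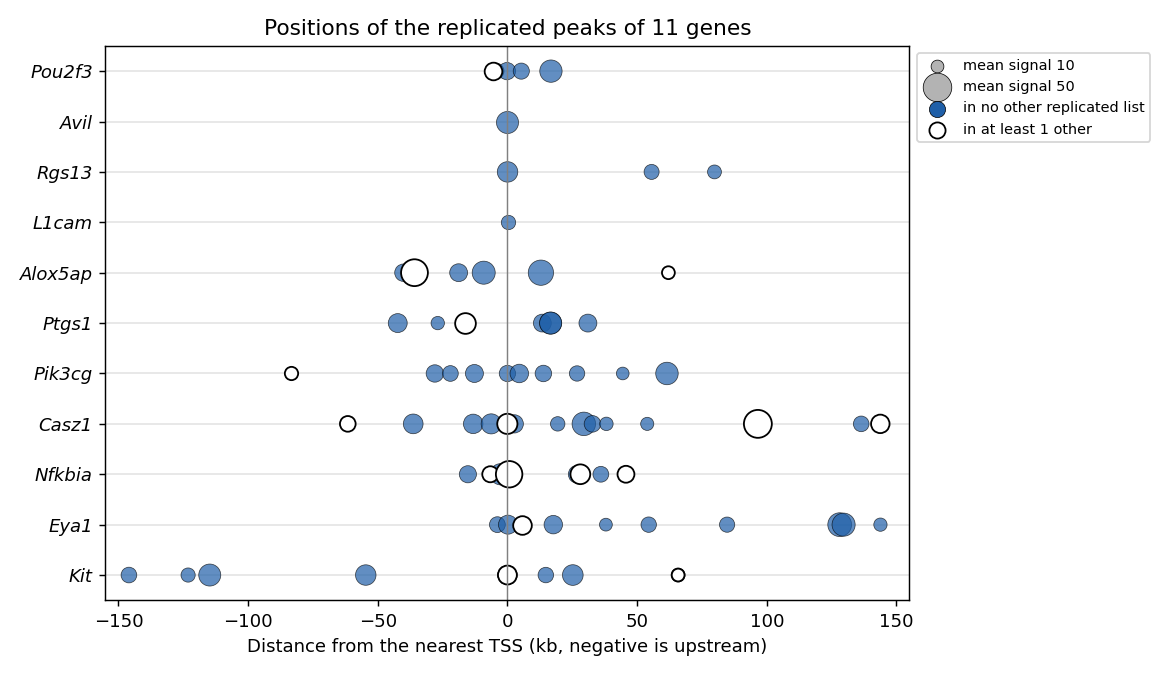
Distance of each replicated peak from the TSS (x, kb, up to 150 kb) for 11 genes; circle area is proportional to the mean normalized signal of the 2 libraries, filled circles are sites in no other population's replicated list and open circles sites in at least 1. Avil and L1cam have a single site. Pik3cg and Casz1 have chains of sites on both sides of the start, and Eya1 a single upstream site and a chain downstream. Most sites of these chains are filled, where 37.1% of all sites lay in no other replicated list.

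Joined across gaps of up to a fixed length between 5 and 25 kb (given with the processing), the sites formed 17273 regions, of which 216 held at least 5 sites and together 5.24% of all sites. The number depends on the gap: it was 4 at 5 kb and 760 at 25 kb. The maximum of 12 sites was reached by 3 regions. The first was the replication-dependent histone cluster on chromosome 13 (chr13:23622808-23677962), where 11 of the 12 sites were at a TSS and the summed signal was 356.8 and 259.9. The second lay over Syce2, Dand5 and Nfix on chromosome 8 (chr8:87324301-87396183) with 333.5 and 239.4, and the third over Bcl3, an NF-kB cofactor, and Cblc, a ubiquitin ligase, on chromosome 7 (chr7:20382089-20435154) with 247.1 and 185.5. A region of 11 sites spanned Lmna, Mex3a and Sema4a on chromosome 3 (chr3:88260352-88340751). MHC class II genes formed a region of 9 sites over H2-Aa, H2-Eb1 and H2-Eb2 (chr17:34422931-34462635), at 292.8 and 159.2.

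Regions without a start site numbered 28 of the 216. The longest chain, 9 sites over 55.5 kb between Gpr37l1 and Elf3, an epithelial ETS factor (chr1:137068672-137124179), summed to 217.1 and 151.9, and 3 of its sites met no peak of another library. In a region of 7 sites nearest to 1700110K17Rik on chromosome 9 (chr9:40151018-40198722) 6 of 7 met none, with 128.8 and 90.6 in all. Of all sites, 25.5% met none. Ranked instead by summed signal, the first 10 regions were led by the rRNA and satellite copies described above: 9 of the 10 held one, and 6 were a single site each.

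Tuft genes were taken by role from 5 lists of 72 gene symbols, among which Siglecf also stands as Siglec5. A replicated peak within 10 kb of the start was found for 52, or 72.2%, beside the 62.2% and 48.1% of all genes given above. The markers in these lists are part of how the cells were named, so nothing is read from that difference. The 72 genes had 178 sites at any distance, in 61 genes: 73 intronic, 68 intergenic and 31 at a promoter. Signal ran from 10.8 to 88.2 in replicate 1 and from 7.23 to 52.5 in replicate 2, and 8.43% of the sites were higher in replicate 2, near the 7.63% of all sites. Of the 35 sites within 1 kb of a TSS 18, 51.4%, lay in no other population's replicated list, where 11.8% of all such sites did; beyond 1 kb it was 103 of 143, 72.0%, beside 56.9%.

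**Figure D5:**
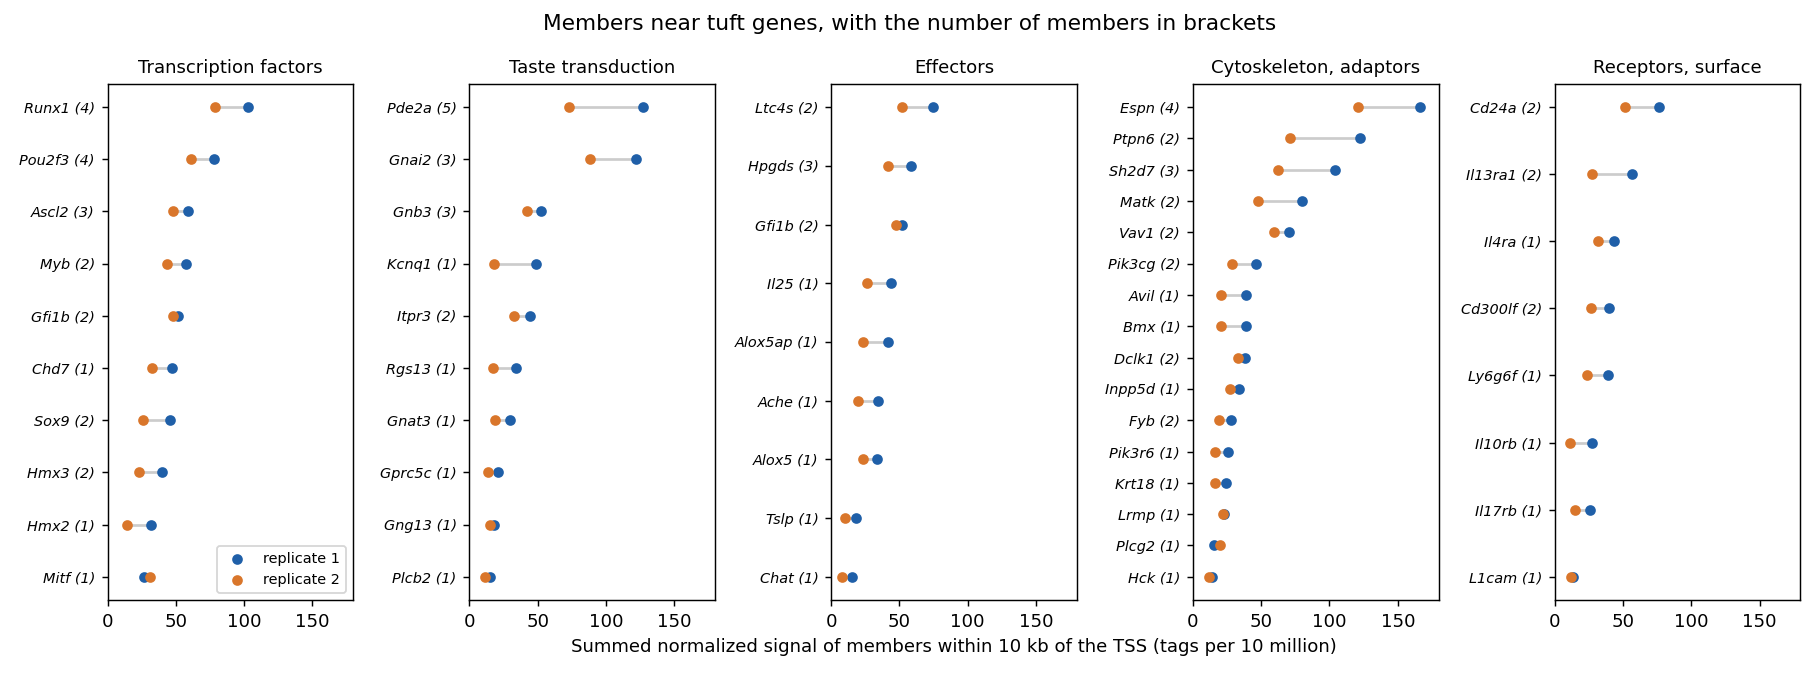
Summed normalized signal (x, tags per 10000000) of the sites within 10 kb of the TSS for the tuft-list genes that had one, by role, in replicate 1 (blue) and replicate 2 (orange), with the number of sites in brackets; Gfi1b is in 2 lists. Replicate 1 is the higher library for all but Mitf and Plcg2, and Espn has the largest sum, at 166.4 and 121.0.

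Among the transcription factors, 10 of 12 genes had a site within 10 kb, 83.3% beside the 62.2% and 48.1% of all genes. For the sums here and in the lists below, the median over all genes with a site within 10 kb was 39.9 and 28.5, with 1 site. Runx1, a Runt-domain factor, had the largest sum over its 4 sites, 103.1 and 78.6, followed by Pou2f3 with 78.2 and 61.3 over 4. Ascl2, a basic helix-loop-helix factor, had 3 sites within 1.68 kb of its start, 59.1 and 47.7 in sum, none of them in another replicated list. Myb had 57.4 and 43.4, and Gfi1b, a zinc finger repressor of tuft cells, 51.6 and 47.7. The homeobox gene Hmx2 had its promoter at 31.6 and 14.5, and its neighbour Hmx3 a promoter site at 24.1 and 11.1. Mitf was the exception to the order of the libraries, with 26.6 and 31.3. Foxe1 and Spib had no site within 10 kb. Foxe1, a forkhead factor, had 3 upstream sites at 15.2 to 39.2 kb, and Spib, an ETS factor, had an intronic peak called in replicate 1 alone although its merged signal was 41.6 and 35.2.

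Most genes of the taste cascade had a site, 10 of 13 within 10 kb, or 76.9% beside 62.2% and 48.1% of all genes. Gnat3, the gustducin alpha subunit, had sites 1.28 and 11.6 kb upstream, at 29.9 and 18.8 for the nearer. Its partners Gnb3 and Gng13 had promoter or start sites at 25 and 15.4 and at 18.3 and 15.4. Plcb2, the phospholipase they activate, had 1 site 1.66 kb upstream at 15 and 11.6. Itpr3, the inositol trisphosphate receptor whose promoter is printed above, had 33.3 and 25.5 at its start. The inhibitory alpha subunit Gnai2 (122.3 and 88.7 in sum over 3 sites) and the phosphodiesterase Pde2a (127.3 and 72.7 over 5) had the largest sums of the 13 genes. Kcnq1, a potassium channel gene, had a promoter site at 49.1 and 17.8, one of the wider gaps between the libraries. Calhm1, Calhm3 and Trpm5 were the 3 without a site within 10 kb.

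Each of the 3 leukotriene genes among the effectors had a site. Of the 12 effectors 9 had one within 10 kb, beside 62.2% and 48.1% of all genes. Alox5, the 5-lipoxygenase, had an intronic site at 33.3 and 23.1 and another 20.3 kb into the gene. Alox5ap, its activating protein, had 6 sites from 40.1 kb upstream to 62.1 kb downstream, the highest at 48.3 and 40. Ltc4s, leukotriene C4 synthase, had 2 with a sum of 74.9 and 52.1. In the prostaglandin branch, Hpgds, prostaglandin D synthase, had 3 sites with 58.3 and 41.5. Ptgs1, cyclooxygenase 1, had 7 sites, 13.5 to 42.3 kb from its start, at 13.3 to 32.4 and 8.68 to 28.0, and none at the promoter, where the peak was called in replicate 1 alone at a merged signal of 15.8 and 6.27. Il25, the cytokine released by tuft cells, had 1 site 1.15 kb upstream at 44.1 and 26.5 (chr14:55550315-55550443). Tslp, a further epithelial cytokine, had its promoter at 18.3 and 10.1, and Chat, choline acetyltransferase, a site 7.28 kb upstream at 15 and 7.71.

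Among cytoskeletal and signalling genes Espn, the actin bundler espin, had 4 sites with 166.4 and 121.0, the largest sum of the 72 tuft-list genes in both libraries, and Ptpn6 2 with 122.3 and 71.3. The SH2-domain adaptor Sh2d7 had 3 sites with 103.9 and 62.7, Matk, a kinase of the Csk family, 79.9 and 47.7, and Vav1, a guanine nucleotide exchange factor, 70.7 and 59.3. The kinase Bmx had an intronic site at 39.1 and 20.7. Of 21 genes 16 had a site within 10 kb, 76.2% beside 62.2% and 48.1% of all genes. Those without were Krt8, Vil1, Sh2d6, Pik3r5 and Trim38. Peaks were assigned to the nearest start alone, and Sh2d6 and Trim38 had no merged peak assigned to them.

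Of 15 receptor and surface genes 8 had a site within 10 kb, a share of 53.3% that lies between the 48.1% and 62.2% of all genes. Il4ra and Il13ra1, chains of the IL-4 and IL-13 receptors, had promoter sites at 43.3 and 31.8 and at 25.8 and 17.4. Il17rb, the IL-25 receptor chain, had intronic sites at 25.8 and 14.9 and at 23.3 and 15.9. Cd24a, a glycosyl-anchored surface protein, had the largest sum, 76.6 and 51.5. Cd300lf, an inhibitory immunoreceptor, had 39.9 and 27 over 2 sites. Sucnr1, the succinate receptor of gut tuft cells, had no site: its promoter peak was in the replicate 2 list alone, with a merged signal of 7.49 and 8.68. Ffar3, Ly6g6d, Folr1 and Ptprc had no merged peak assigned to them within 10 kb. Siglec5 had none under that symbol. It is a synonym of Siglecf, which had 1 merged peak within 10 kb, so that gene is counted again among the 15.

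In all, 20 of the 72 genes lacked a site within 10 kb. For 6 of them each library had a peak in that window but the peaks did not overlap (Foxe1, Trpm5, Ptgs1, Pla2g4a, Pik3r5 and Krt8), for 5 only 1 library had one, and for 9 neither had. The 9 with neither include the synonym Siglec5, and peaks assigned to a neighbouring start were not counted. Of the 20, 9 had a site further away. Taking replicate 1 peaks that shared a merged peak with replicate 2, an alternative added after seeing the data, the share of genes with a site was 75%.

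Of 35 bitter receptor genes (Tas2r family) 10 had a site within 10 kb, 28.6% beside 62.2% of merged-table genes and 48.1% of RefSeq genes, and 16 at any distance, and 20 had no merged peak within 10 kb. The highest sums were those of Tas2r137 at 59.9 and 43.4, Tas2r138 at 43.3 and 25.5, Tas2r118 at 41.6 and 22.7 and Tas2r121 at 32.4 and 16.9. Each site was assigned to its nearest start alone, so in a cluster of such genes a neighbour of a marked gene can have none. Of the sweet and umami receptors, Tas1r3 had 1 site at 15 and 14 and Tas1r1 and Tas1r2 had none.

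Epithelial lists were counted the same way, beside the 62.2% of merged-table genes and 48.1% of RefSeq genes with a site within 10 kb. All 14 genes of junctions and adhesion had a site within 10 kb, among them Epcam (79.8 and 41.9 in sum) and the cadherin Cdh1 (102.3 and 72.3). Epithelial regulators had 12 of 13, with Elf3 (84.8 and 67.5), the splicing factor Esrp1 (84.0 and 47.7) and Klf4 (62.4 and 41.0). Of 14 NF-kB genes all had one, with Relb, a subunit of the non-canonical pathway that mTEC depend on, at 89.0 and 77.6, and its upstream kinase Map3k14 at 89.0 and 66.5. All 11 AP-1 and immediate-early genes had one too. The 15 housekeeping genes all had a site as well, so a full count is not particular to the epithelial lists.

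Of 11 thymic epithelial regulators 7 had a site within 10 kb, 63.6% and so near the 62.2% of all merged-table genes, among them Eya1 (74.0 and 43.9 in sum over 3 of its 12 sites) and Meis1 (51.6 and 38.1). Foxn1, the master factor of thymic epithelium, had no site. Its promoter gave a merged signal of 8.32 and 2.41, an intronic peak 8.60 kb into the gene was called in replicate 1 alone at 24.1 and 9.64, and another 12.1 kb in was called in replicate 2 alone at 14.1 and 14. Of the mature medullary genes 11 of 14 had one. Aire had its promoter at 25.8 and 18.3 (chr10:77506259-77506387), H2-Aa 4 sites with 110.6 and 63.2 in sum, and H2-Ab1 its promoter at 44.1 and 29.4. Ciita, the class II transactivator, had none, and its promoter gave a merged signal of 4.99 and 2.89. A merged peak 14.7 kb upstream of Ciita, at a merged signal of 25.8 and 19.3, held a peak of each library, but these did not overlap. Of the basal and keratin list 4 of 10 genes, 40%, had one. Krt5 and Krt14 had no site, and the promoter of Krt5 gave a merged signal of 0.830 and 0.960.

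Markers of other cell types were read the same way, and their part in the sites was not tested. Over all genes, 62.2% of those in the merged table and 48.1% of RefSeq protein-coding genes had a site within 10 kb. The CD45- gate is meant to remove T, B and myeloid cells, and the Epcam+ gate mesenchyme, endothelium and red cells. Of 13 T cell genes 3 had a site within 10 kb, Lck at 26.6 and 17.8, Bcl11b at 22.4 and 21.7 in sum and Cd4 at 17.5 and 10.1, and the summed merged signal of the list was 136.4 and 108.9 with a median gene at 0 in both libraries. B cell genes had 3 of 7 (178.0 and 151.3 in sum), myeloid and dendritic genes 3 of 11 (185.5 and 161.4), mesenchyme 2 of 10 (177.2 and 144.6), endothelium 2 of 9 (134.8 and 117.1), red cells 1 of 7 (84.0 and 67.5) and liver 1 of 6 (49.9 and 54.9). The 8 tuft markers gave 553.2 and 432.8 on that scale, with a median gene at 68.2 and 48.7. That is near the median of 65.7 and 51.1 over all genes with a merged peak within 10 kb. The lists differ in length, so their sums are not set against each other. In the myeloid list Emr1 is an older symbol of Adgre1, so that gene is counted again. Cortical thymic epithelial genes had 6 of 8 (544.1 and 379.3), though Psmb11, their defining protease subunit, had no merged peak assigned to it. Neuronal genes had 6 of 8 (317.8 and 279.5), led by Syt1 at a merged signal of 89.0 and 80.5. The cortical and neuronal lists lay above both all-gene shares. The T cell, B cell, myeloid, mesenchyme, endothelium, red cell and liver lists lay below both, with the B cell list nearest at 42.9%.

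Promoter sequences were matched to sites by gene, so every RefSeq promoter of a gene with a site at one start is counted as with a site. RefSeq gave 32851 promoters of 300 bases (250 before and 50 after the start, GRCm38.p6), of which 9850 belonged to genes with a replicated peak within 1 kb of a start and 23001 did not. Median GC content was 61.3% and 49.7%, and the median number of CpG dinucleotides 21 and 4. Searched on both strands, with no motif contained in another, the GC box GGGCGGGG was in 34.5% of promoters with a site and 10.4% of those without (17.6% of all). The ETS string CCGGAAGT was in 8.35% and 1.98% (3.89% of all), and the NRF1 palindrome in 2.22% and 0.435% (0.971% of all). The CCAAT box was in 38.8% and 36.8% (37.4%). Shares were lower with a site for 3 motifs: the AP-1 string TGANTCA was in 4.64% and 9.16% (7.81%), the RUNX string TGTGGTTT in 0.934% and 2.15% (1.78%), and the octamer ATGCAAAT in 1.55% and 1.81% (1.74%). Among the 22862 genes with a single promoter in the table, a restriction added after seeing the data, median GC was 61.7% for 6198 genes with a site and 49% for 16664 without, and each motif kept its direction (GC box 37.0% and 10.2%, CCAAT box 40.9% and 37.2%, octamer 1.74% and 1.84%). Base composition moved with the site, and its part was not tested.

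The tuft lists matched 53 genes with 72 promoters, of 57.0% median GC. The octamer was in 5 of them, 6.94%: those of Il4ra, Itpr3 and Hpgds printed above, and those of Sucnr1 and Ly6g6d, which had no site. The GC box was in 17 (23.6%), the CCAAT box in 21 (29.2%), the AP-1 string in 3 (4.17%), the ETS and RUNX strings in 2 each (2.78%) and the NRF1 palindrome in none. With 5 promoters the octamer share is a count and carries no statement about Pou2f3, and the letters under the distal sites of Pou2f3, Casz1 or Pik3cg were not read, since they need the mm9 genome.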

How the data were processed

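ATAC-seq libraries of 4 sorted thymic epithelial populations, 2 each, were grouped by sample title. The submitters' processing notes name mm9, HOMER without a version, bcl2fastq 2.15.0.4 and Picard 1.108. Aligner, handling of duplicates and of reads with several matches, and read-end shifts were not given in the sources used here. Peaks were called by the authors library by library, per the file headers, at fragments of 300 bp, an FDR of 0.001 and 4-fold the local density within 10000 bp. Each deposited list gives a normalized signal per 10000000 tags, an unscaled score used only to rank, a focus ratio (a fraction) and a fold over the local region. The authors' merged table gives the signal of every library at 74090 peaks with the annotation and distance to the nearest TSS. Tags were recovered from the normalized signal and the deposited totals.

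Each replicate 1 peak was counted as a site when it overlapped a replicate 2 peak by at least 1 bp (closed intervals, Python 3.11.15, pandas 2.3.3; checked against bedtools 2.31.1 and tested on simulated data). A site took the annotation of the merged peak it overlapped most, and 510 sites (2.10%) overlapped another site. Loci were ranked by the worse of the 2 ranks by normalized signal. Genes were counted by the nearest start within 50 kb, lists within 10 kb and regions across gaps of 12.5 kb. Named were the markers and sort genes, the first 20 loci and genes, the first 10 regions and up to 4 genes per list with the largest sums, besides defining genes without a site. Some genes that this rule names are not reported here. Further genes named by role, and the rankings without repeat or CpG notes, were chosen after their values were seen. The sites and gene lists were chosen with earlier results of these data known. Intervals and errors from tag numbers cover counting error only. No test was run, because the rule used the measure itself. The matches of RefSeq symbols cover 27025 genes with a promoter.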

Additional observations from a re-analysis of the deposited data

How the results depend on the processing

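The rule, the threshold and the window set most of the counts. Of the alternatives for the number of sites, 24319, the better 50% of each list by score gave 12725 and a single list alone gave 30017 to 38108; the others stayed within 1.5 times. The TSS share of 43.9% was 67.7% in the better 50% and 58.0% when sites were weighted by signal, and 36.9% to 41.6% in a single list. The intronic share of 28.1% became 16.1% and 20%, and 30.0% to 32.1% in a single list; the intergenic share of 27% became 16.5% and 21.7%, and 27.7% to 30.0%. Of the first 20 loci 17 to 19 were kept when the same sites, chosen from both lists, were ranked by 1 library alone. Of the 20, 4 were neither rRNA nor satellite. Of the 20 genes with most sites 3 were kept within 10 kb, 13 within 100 kb, 7 at any distance and 10 to 12 in a single list. Regions of at least 5 sites, 216, numbered 4 and 760 with gaps of 5 and 25 kb and 429 to 848 in a single list. Tuft genes with a site, 72.2%, were 45.8% within 1 kb, 83.3% within 50 kb, 84.7% at any distance, 56.9% in the better 50%, 75% by shared merged peak and 83.3% to 84.7% in a single list. The share in all 4 populations, 25.4%, was 14.6% with an overlap of at least 50% of the peak and 51.2% with lists of equal length. Over 26 single gene lists, 55 of 182 alternatives were higher, 44 lower and 83 equal. In genes with 1 promoter in the table, the share of promoters with a site that held the GC box, 34.5%, was 37.0%, the CCAAT box, 38.8%, was 40.9%, the ETS string, 8.35%, was 9.36% and the AP-1 string, 4.64%, was 4.15%. Alternatives by shared merged peak, by 1 site per merged peak, by 1 promoter and without repeats were chosen after seeing the data. The cause of these differences was not tested beyond what each setting changes. No paired analysis was possible because no result comes from a test. Depth limits the weak sites: 70.2% and 59.0% of sites had under 20 tags in replicates 1 and 2.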
